A study of Rattus norvegicus with 72 samples.

Results

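The genes described here are 10 linked to milk fat globules, lipid droplets or lipid uptake: Cidea, Xdh, Plin2, Mfge8, Lpl, Cd36, Vldlr, Fabp3, Gpat4 and Abhd5. A probe set, the group of short probes that reports a transcript on an Affymetrix array, was taken as a member where the platform annotation gave it a single symbol equal to one of these names. This found 16 of the 31042 probe sets and 10 of the 14217 genes named by such probe sets. Plin2, Gpat4 and Abhd5 had 2 probe sets each and Vldlr had 4. A gene with several probe sets was described by the one that was brightest on average over the 58 arrays used from the main sets, and the others are given where they differed.

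The series profiled total RNA of rat tissues on 72 arrays, and every value below is a log2 signal. The main sets held mammary gland, adipose tissue and liver of lactating and of pregnant rats, each in hypergravity and at standard gravity, which makes 12 groups of 5 arrays. Rat codes recur across the tissues, so the mammary, adipose and liver arrays of 1 code came from the same animal, and no 2 groups of a tissue share a rat. A separate set held pregnant mammary gland in microgravity, a flight control and a vivarium control, with 4 arrays each. It had array medians of 4.87 to 5.02, against 4.32 to 4.56 in the main sets, and it was compared only within itself. The labels used here gave no strain, age, day of pregnancy or lactation, gravity level or exposure time. They also did not say that the lettered arrays of the microgravity set came from separate animals, so p-values there measure the spread between arrays, which may be technical.

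Some arrays went against their labels or carried other tissue. The array labelled mammary of the lactating hypergravity rat with arrays M210H and A210H had a mean of 4.37 over 7 secretory epithelium markers, and the array labelled adipose of the same rat had a mean of 11.97. Over 6 adipocyte markers the array labelled mammary had a mean of 10.25 and the one labelled adipose 8.01. Both were left out, which leaves 4 arrays in lactating hypergravity mammary gland and 4 in lactating hypergravity adipose tissue. Mean skeletal muscle marker signal reached 9.16 and 8.83 in mammary arrays M50H and M212H, and 12.45 and 11.2 in adipose arrays A48S and A217H. Mean hepatocyte marker signal reached 10.53 in mammary array M56H. The 19 mammary arrays used had secretory epithelium means of 11.57 to 12.12, and the adipose arrays that were used had adipocyte means of 9.8 to 10.73. Brown adipocyte markers averaged 2.96 to 5.58 in every array. In these bulk samples, fewer cells of a type and less RNA per cell cannot be told apart.

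Milk fat is made in the secretory epithelial cells of the mammary gland. Fatty acids are taken from circulating triglyceride by lipoprotein lipase on the capillary wall or are made in the cell, and are then joined to glycerol in the endoplasmic reticulum. The triglyceride buds into droplets that move to the apical surface and leave the cell wrapped in plasma membrane, as milk fat globules. The same uptake and droplet genes also act in adipocytes, which store triglyceride.

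The promoters of the 3 genes with the largest lactation differences in mammary gland at standard gravity are printed because each was called higher there. The sequences are from RefSeq, on build GRCr8, and cover the 250 bases before an annotated transcript start on the plus strand. The windows lie at chr18:63164567-63164816, chr4:18246332-18246581 and chr8:130877622-130877871. The Cd36 window lies within the annotated gene (chr4:18209088-18302142), and the Abhd5 window runs past its annotated gene start (chr8:130877834). Capitals mark the hexamer AGGTCA, a core motif of nuclear receptor sites (shown here on its opposite strand as TGACCT).
Cidea: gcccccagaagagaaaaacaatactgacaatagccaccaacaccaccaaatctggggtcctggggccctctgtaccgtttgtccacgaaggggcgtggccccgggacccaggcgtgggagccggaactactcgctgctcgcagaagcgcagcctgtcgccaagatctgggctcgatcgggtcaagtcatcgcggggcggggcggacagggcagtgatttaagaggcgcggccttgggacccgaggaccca
Cd36: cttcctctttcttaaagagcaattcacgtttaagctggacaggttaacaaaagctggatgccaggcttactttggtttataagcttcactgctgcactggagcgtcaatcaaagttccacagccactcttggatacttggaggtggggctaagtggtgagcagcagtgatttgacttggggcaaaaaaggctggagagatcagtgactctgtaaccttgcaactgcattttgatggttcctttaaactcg
Abhd5: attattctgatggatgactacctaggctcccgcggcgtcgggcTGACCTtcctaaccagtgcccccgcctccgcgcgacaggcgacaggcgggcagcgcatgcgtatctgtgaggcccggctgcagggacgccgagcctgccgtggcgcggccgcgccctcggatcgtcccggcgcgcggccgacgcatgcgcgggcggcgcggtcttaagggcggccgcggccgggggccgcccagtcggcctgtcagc
Both strands of 9 windows from 8 of the 10 members were searched for 3 motifs. The STAT5 core TTCNNNGAA was in none of the 9, and 7.67% of 33465 rat promoter windows of the same length held it. The hexamer AGGTCA was in the Abhd5 window alone, and 14.1% of all windows held it. The E-box CACGTG was in 1 of the 2 Plin2 windows, and 5.59% of all windows held it. A motif match is a description of these letters and does not show a bound site. Lpl and Gpat4 were not matched to a window.

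In mammary gland, lactation at standard gravity was marked by 4 of the 10 genes being higher than in pregnancy: Cidea, Cd36, Abhd5 and Gpat4. None was lower. Over all probe sets, 16.8% were called higher and 17.3% lower (limma, Benjamini-Hochberg adjusted p under 0.05). The median log2 difference of the 10 genes was 0.40, beside -0.011 over all probe sets. In lactating mammary gland 5 of the 10 genes were lower in hypergravity, namely Gpat4, Fabp3, Cidea, Cd36 and Lpl, where 4.49% of all probe sets were called higher and 4.94% lower. Array M203H had the lowest lactating hypergravity value for each of these 5 genes. The Lpl call was lost without array M203H (adjusted p = 0.067). The Gpat4, Fabp3, Cidea and Cd36 calls were kept on leaving out any single array of the compared groups. In pregnant mammary gland none of the 10 was called between hypergravity and standard gravity, where 0.00322% of all probe sets were higher and 0% lower, so this count says nothing particular of the members.

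**Figure D1:**
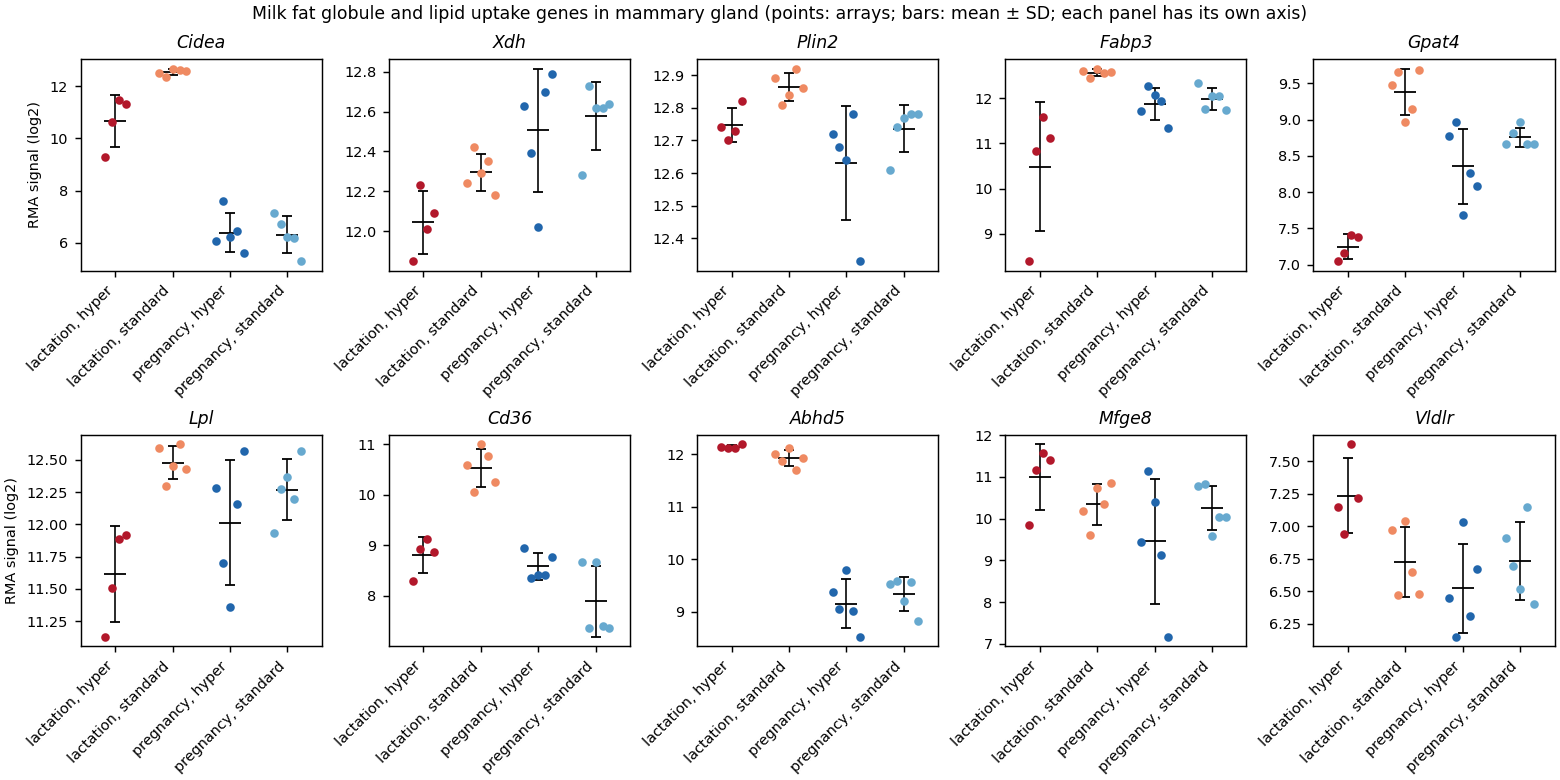
Log2 signal of the 10 genes in each mammary array of the main sets, with the mean and SD of the group; each panel has its own vertical axis and the groups run from lactating hypergravity to pregnant standard gravity. Cidea, Cd36 and Abhd5 sit apart by stage at standard gravity, and Gpat4 in lactating hypergravity glands (7.05 to 7.41) lies below all other mammary arrays.

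Among the genes of droplet growth and secretion, Cidea showed the widest range. Its product is a lipid droplet protein known in mouse to enlarge droplets and to be needed for milk lipid secretion. Cidea (gene 291541, GRCr8 chr18:63164817-63190384, probe set 1389179_at) had 9.27, 10.63, 11.47 and 11.3 in lactating hypergravity glands, against 12.49, 12.34, 12.66, 12.63 and 12.56 in lactating standard gravity glands. In pregnant glands it had 6.07, 7.6, 6.22, 6.46 and 5.63 in hypergravity, against 7.16, 6.72, 6.24, 6.19 and 5.31 at standard gravity. Lactating arrays lay above all pregnant arrays at both gravities, and the 4 lactating hypergravity arrays lay below the 5 lactating standard gravity arrays. The log2 difference of lactation from pregnancy was 4.27 ± 0.43 in hypergravity (SE, 19.3-fold, limma adjusted p = 5e-06), beside 6.21 ± 0.40 at standard gravity (adjusted p = 1.5e-08). In lactation the hypergravity glands were lower by 3.65-fold (log2 -1.87 ± 0.43, adjusted p = 0.008). Array M203H gave the lowest of the lactating hypergravity values, and without it the difference was -1.4 (adjusted p = 0.035). The difference between the stage effects was -1.94 ± 0.59 and did not pass the test (adjusted p = 0.079).

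Xdh and Plin2 were bright in every mammary array and moved little. Xdh encodes xanthine oxidoreductase, which has a structural role in globule secretion beside its enzyme activity, and Plin2 encodes the protein that coats the droplet. Xdh (gene 497811, chr6:27282319-27344022, 1369973_at) ranged from 11.85 to 12.23 in lactating hypergravity glands and from 12.18 to 12.42 in lactating standard gravity glands. In pregnant glands it ranged from 12.02 to 12.79 in hypergravity and from 12.28 to 12.73 at standard gravity. It was lower in lactation than in pregnancy under hypergravity, by -0.46 ± 0.14 (adjusted p = 0.022), with overlapping arrays. This call was lost without array M50H, M59H, M60H, M203H or M212H (adjusted p = 0.051, 0.058, 0.056, 0.08 and 0.051). At standard gravity its lactation difference was -0.28 ± 0.14 (adjusted p = 0.12). Plin2 (gene 298199, chr5:106202634-106258748, 1390383_at) kept within 12.33 to 12.92 over all 19 mammary arrays and was called in neither stage comparison. Within that range, lactating standard gravity arrays (12.81 to 12.92) lay above pregnant standard gravity arrays (12.61 to 12.78). These signals are near the top of the scale, where an array can compress differences. The dimmer Plin2 probe set 1382680_at was called higher in lactation at standard gravity, by 0.32 (adjusted p = 0.047), with overlapping arrays. For hypergravity in lactation it gave -0.37 and was not called (adjusted p = 0.078), though those arrays did not overlap.

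Mfge8 (gene 25277, chr1:142474027-142489431, 1386860_at) encodes a secreted protein of the globule membrane that binds phosphatidylserine. It had 9.84, 11.17, 11.57 and 11.4 in lactating hypergravity glands, against 10.19, 9.61, 10.73, 10.36 and 10.85 in lactating standard gravity glands. Pregnant hypergravity glands had 9.44, 11.13, 10.4, 9.12 and 7.17, against 10.77, 10.84, 9.59, 10.05 and 10.04 in pregnant standard gravity glands. The groups overlapped in every pairing by stage or gravity. The lactation difference was 1.54 ± 0.57 in hypergravity (adjusted p = 0.051), beside 0.09 ± 0.54 at standard gravity (adjusted p = 0.93). The hypergravity value passed the test with array weights (adjusted p = 0.012), with dim probe sets left out (0.029), and without array M55H, M203H or M56H (0.011, 0.028 and 0.024). Without array M60H, the lowest of the pregnant hypergravity group, the difference was 0.97 (adjusted p = 0.12).

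Of the uptake genes, Cd36 differed most between lactation and pregnancy at standard gravity. CD36 is a membrane protein that binds long-chain fatty acids and aids their entry. Cd36 (gene 29184, chr4:18209088-18302142, 1367689_a_at) had 8.29, 8.93, 9.12 and 8.86 in lactating hypergravity glands, against 10.59, 10.06, 11, 10.77 and 10.26 in lactating standard gravity glands. In pregnant glands it had 8.95, 8.35, 8.41, 8.42 and 8.77 in hypergravity, against 8.66, 7.37, 8.66, 7.41 and 7.36 at standard gravity. The lactating standard gravity arrays lay above all others, and the remaining 3 groups overlapped one another. Lactation was higher than pregnancy by 6.25-fold at standard gravity (log2 2.64 ± 0.28, adjusted p = 2.5e-06), whereas in hypergravity the difference was 0.22 ± 0.29 (adjusted p = 0.62). The difference between these stage effects was itself called, at -2.42 ± 0.40 (adjusted p = 0.0018). In lactation, hypergravity was lower by 3.33-fold (log2 -1.73 ± 0.29, adjusted p = 7e-04).

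Lpl encodes lipoprotein lipase, which releases fatty acids from circulating triglyceride. Lpl (gene 24539, chr16:25596205-25621928, 1386965_at) had 11.13, 11.51, 11.89 and 11.92 in lactating hypergravity glands, against 12.59, 12.3, 12.45, 12.62 and 12.43 in lactating standard gravity glands. Those 2 groups did not overlap. Pregnant hypergravity arrays, at 11.36 to 12.57, overlapped both, and pregnant standard gravity arrays, at 11.93 to 12.57, lay above the lactating hypergravity ones. In lactation Lpl was lower in hypergravity by 1.82-fold (log2 -0.87 ± 0.22, adjusted p = 0.014). This call rested on array M203H: without it the difference was -0.71 (adjusted p = 0.067). Neither stage difference was called, at -0.40 ± 0.22 in hypergravity and 0.21 ± 0.20 at standard gravity.

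Fabp3, a cytosolic fatty acid carrier abundant in heart, muscle and lactating mammary gland, was lower in lactating hypergravity glands. Fabp3 (gene 79131, chr5:147936027-147942870, 1367660_at) had 8.4, 10.84, 11.59 and 11.11 there, against 12.61, 12.44, 12.65, 12.55 and 12.57 in lactating standard gravity glands. It ranged from 11.35 to 12.26 in pregnant hypergravity glands and from 11.73 to 12.33 in pregnant standard gravity glands. Hypergravity in lactation was lower by 4.22-fold (log2 -2.08 ± 0.42, adjusted p = 0.0031). Array M203H again gave the lowest value; without it the difference was -1.38 and remained called (adjusted p = 0.00033). The highest lactating hypergravity value, 11.59, came from array M212H, which carried skeletal muscle markers, and without that array the difference was -2.44 (adjusted p = 0.00096). The lactation difference was -1.38 ± 0.42 in hypergravity (adjusted p = 0.019), beside 0.58 ± 0.40 at standard gravity (adjusted p = 0.30). At standard gravity the lactating arrays (12.44 to 12.65) still lay above all pregnant arrays (11.73 to 12.33). That difference was called when only the compared groups were fitted. Without array M203H the hypergravity stage difference was -0.68 (adjusted p = 0.021), and it lost the call when only the compared groups were fitted (adjusted p = 0.12). The difference between the stage effects was -1.96 ± 0.58 (adjusted p = 0.07), and it was called without array M203H (-1.26, adjusted p = 0.013).

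Vldlr (gene 25696, chr1:234239769-234272150, 1389611_at) encodes a receptor for triglyceride-rich lipoproteins. It ranged from 6.94 to 7.63 in lactating hypergravity glands, against 6.47 to 7.04 in lactating standard gravity glands. In pregnant glands it ranged from 6.15 to 7.03 in hypergravity and from 6.4 to 7.15 at standard gravity. Its lactation difference in hypergravity was called at 0.71 ± 0.20 (adjusted p = 0.012), with overlapping arrays, and was lost without array M212H (0.58, adjusted p = 0.052). Its other probe sets disagreed: 1369098_at gave 0.75 (adjusted p = 0.0052), 1387455_a_at gave 0.16 and 1392924_at gave -0.23, the last 2 not called. At standard gravity the difference was -0.01 ± 0.19.

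Gpat4 catalyses the first acylation of glycerol 3-phosphate in triglyceride synthesis. Gpat4 (gene 290843, chr16:75515935-75555431, 1372919_at) had 7.05, 7.16, 7.41 and 7.38 in lactating hypergravity glands, against 9.47, 9.65, 8.97, 9.14 and 9.69 in lactating standard gravity glands. In pregnant glands it had 8.78, 8.96, 7.68, 8.26 and 8.09 in hypergravity, against 8.66, 8.82, 8.96, 8.66 and 8.67 at standard gravity. The lactating groups were at opposite ends of the main sets. The standard gravity arrays lay above all other mammary arrays there, though narrowly (8.97 against 8.96), and the hypergravity arrays lay below them. Hypergravity in lactation was lower by 4.39-fold (log2 -2.13 ± 0.22, adjusted p = 5e-06). Lactation was lower than pregnancy in hypergravity by -1.10 ± 0.22 (adjusted p = 0.0012) and higher at standard gravity by 0.63 ± 0.20 (adjusted p = 0.023). The difference between the stage effects was -1.73 ± 0.30 (adjusted p = 0.0022). The standard gravity stage call was lost without array M202S (0.56, adjusted p = 0.056) and without array M219S (0.55, adjusted p = 0.061).

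The dimmer Gpat4 probe set 1384383_at gave the same direction for hypergravity in lactation, at -1.88 (adjusted p = 4.8e-05), and for lactation at standard gravity, at 1.97 (adjusted p = 6.1e-06). It did not show a lower level in lactation under hypergravity (-0.01, adjusted p = 0.98), and there its means were 4.25 in lactating and 4.27 in pregnant glands. A level this low may be near background, which these values, having no detection call, cannot show.

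Abhd5 is the co-activator of the triglyceride lipase Pnpla2. Abhd5 (gene 316122, chr8:130877834-130903947, 1380665_at) had 12.13, 12.11, 12.11 and 12.19 in lactating hypergravity glands, against 12, 11.88, 12.12, 11.71 and 11.93 in lactating standard gravity glands. In pregnant glands it had 9.37, 9.06, 9.8, 9.02 and 8.53 in hypergravity, against 9.54, 9.58, 9.21, 9.56 and 8.83 at standard gravity. All lactating arrays lay above all pregnant arrays, and within each stage the gravity groups overlapped on this probe set. Lactation was higher by 7.87-fold in hypergravity (log2 2.98 ± 0.20, adjusted p = 7.4e-08) and by 6-fold at standard gravity (log2 2.58 ± 0.19, adjusted p = 6.1e-08). Hypergravity in lactation gave 0.21 ± 0.20 (adjusted p = 0.71). The dimmer probe set 1379854_at gave stage differences of 3.84 in hypergravity and 2.59 at standard gravity. For hypergravity in lactation it gave 1.06 ± 0.33, which did not pass the test (adjusted p = 0.056). There its arrays did not overlap, with 7.38 to 8.1 in lactating hypergravity glands, against 5.77 to 7.34 in lactating standard gravity glands.

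**Figure D2:**
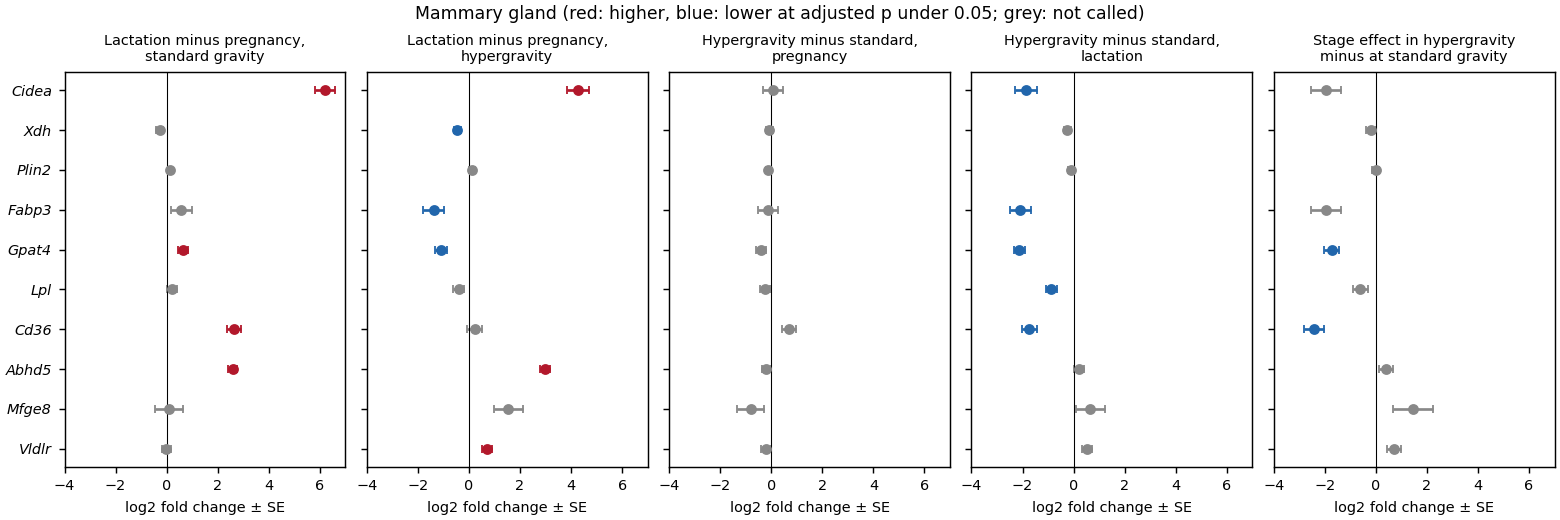
Log2 differences of the 10 genes with their SE in 5 mammary comparisons, drawn as lactation minus pregnancy, as hypergravity minus standard gravity, or as the difference between stage effects; red marks genes called higher, blue genes called lower and grey genes not called. Abhd5 is red in both stage comparisons, and Gpat4 and Cd36 are blue for hypergravity in lactation and for the difference between stage effects.

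Counted over the 10 genes, lactation under hypergravity was higher for Cidea, Abhd5 and Vldlr and lower for Xdh, Fabp3 and Gpat4, where 14.6% of all probe sets were higher and 14.6% lower. The median of the members was 0.17, beside -0.042 over all probe sets. Hypergravity in lactation had 0 members higher and 5 lower, with a median of -0.56, beside 0.01 over all probe sets. The difference between stage effects had 0 higher and 2 lower, where 2.18% of all probe sets were higher and 1.85% lower, with medians of -0.40 and -0.019. Hypergravity in pregnancy called 0 of the 10 genes by limma. In that comparison 1668 of the 31042 probe sets had an unadjusted p under 0.05, where chance alone gives about 1 in 20. There Cd36 differed by 0.69 ± 0.28 (adjusted p = 0.88), Gpat4 by -0.40 ± 0.20 (adjusted p = 0.94; 0.10 ± 0.23 on its other probe set) and Mfge8 by -0.81 ± 0.54 (adjusted p = 0.96).

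Cell type markers were compared in the same arrays. Summed over 7 secretory epithelium markers, signals were 82.7 to 84.2 in lactating hypergravity glands, against 82 to 82.9 in lactating standard gravity glands, with 2 markers higher and 1 lower. Summed over 6 adipocyte markers they were 47.3 to 51.1 in lactating hypergravity glands, against 45.9 to 51.4 in lactating standard gravity glands, with none called. Summed over 7 macrophage markers they were 59.8 to 64.6 in lactating hypergravity glands, against 54.5 to 57.3 in lactating standard gravity glands, and 2 of the 7 were called higher. The macrophage sum in pregnant standard gravity glands was 63.1 to 67.2, and 5 of the 7 were lower in lactation at that gravity. For hypergravity in lactation, 1 of 6 endothelium markers was lower (median log2 difference -0.38) and 1 of 5 myoepithelium markers was higher (median -0.06). Of 7 skeletal muscle markers 1 was lower (median 0.99), and no hepatocyte or brown adipocyte marker was called. The part of these cell types in the member differences was not tested, and log2 signals without detection calls do not show which markers were absent. A further fit left out mammary arrays M50H, M56H, M212H, M52S and M57S for markers of another tissue. M52S and M57S came from pregnant standard gravity glands and M50H and M56H from pregnant hypergravity glands. M212H came from lactating hypergravity glands and was the only lactating array left out. That left fewer arrays in both pregnant groups and in the lactating hypergravity group. In that fit hypergravity in lactation gave -2.14 for Cidea, -2.44 for Fabp3, -2.19 for Gpat4, -0.96 for Lpl and -1.84 for Cd36. All 5 were still called. Lactation at standard gravity then gave 5.83 for Cidea, 2.31 for Cd36 and 2.49 for Abhd5, all called, and 0.57 for Gpat4, which was not (adjusted p = 0.065).

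Over the 19 mammary arrays, Cidea correlated with Abhd5 at 0.93 and with Cd36 at 0.83, and Fabp3 with Gpat4 at 0.76. These Pearson coefficients are descriptions over arrays that share groups. The genes outside the set most like Cidea were Mfsd4a and Folr1, both at 0.98, and Prdx4 at 0.97. For Cd36 they were Ell2 at 0.95, Pde4d at 0.93 and B4galt1 at 0.92. Gpat4 was most like Tcf19 and Acaca, both at 0.91, and Thap7 at 0.9. Abhd5 was most like Gng10 at 0.97, and Agrn and Gk at 0.96. For Fabp3 they were Aldoc, Abcg2 and Fads1, each at 0.91, and for Lpl they were Pdha1 and Tspan13 at 0.89 and Plcxd2 at 0.88. Xdh was most like Ptpn18 at 0.95, Mfge8 like Ripk4 and Psap at 0.93, Plin2 like Kat7 and Ywhae at 0.89, and Vldlr like Rnf125 and Cir1 at 0.8.

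Lists of related genes were read in the same fits, and their counts stand beside shares over all probe sets of 16.8% higher and 17.3% lower for lactation at standard gravity, 14.6% and 14.6% for lactation in hypergravity, and 4.49% and 4.94% for hypergravity in lactation. Of 6 other globule membrane genes, 4 were measured and 3 were higher in lactation at both gravities: Folr1, Slc34a2 and Rab18. The list median was 1.08 in hypergravity and 1.55 at standard gravity. Folr1, the folate receptor, averaged 7.41 in lactating hypergravity glands and 3.76 in pregnant hypergravity glands. At standard gravity it averaged 8.47 in lactation and 3.73 in pregnancy, a difference of 4.74 ± 0.45 (adjusted p = 9.4e-07). Slc34a2, a sodium phosphate cotransporter, was lower in hypergravity in lactation (-1.28 ± 0.31, adjusted p = 0.011), and so was the droplet-associated GTPase Rab18 (-0.76 ± 0.16, adjusted p = 0.004). Rab18 had 10.43, 10.6, 11.13 and 10.88 in lactating hypergravity glands, against 11.72, 11.27, 11.66, 11.42 and 11.53 in lactating standard gravity glands, without overlap. Btn1a1 and Muc15 were not matched.

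Of 16 lipid droplet and lipolysis genes, 1 was higher and 5 were lower in lactation at standard gravity (list median -0.17), and 2 were higher and 4 lower in hypergravity (median -0.29). Fitm2, which helps droplets form, was higher in both, by 2.90 ± 0.72 in hypergravity (adjusted p = 0.0058) and 3.42 ± 0.68 at standard gravity (adjusted p = 0.00082). Pnpla2, the lipase that Abhd5 activates, was lower in both, by -1.04 ± 0.34 in hypergravity (adjusted p = 0.028) and -1.29 ± 0.32 at standard gravity (adjusted p = 0.0045). G0s2, an inhibitor of that lipase, had 9.12, 10.24, 10.72 and 8.72 in lactating hypergravity glands, against 12.1, 12.26, 11.48, 12.12 and 12.35 in lactating standard gravity glands. The groups did not overlap, and G0s2 was lower by 5.15-fold (log2 -2.36 ± 0.33, adjusted p = 0.00012). In the same comparison Lipe, or hormone-sensitive lipase, was higher by 0.85 ± 0.25 (adjusted p = 0.042) and the droplet coat gene Plin3 by 0.59 ± 0.17 (adjusted p = 0.033). That made 2 of 16 higher and 1 lower, with a list median of -0.05.

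Of 23 measured genes that handle lipoprotein lipase or take up lipid, 2 were higher and 5 lower in lactation at standard gravity (median -0.41). In hypergravity 4 were higher and 3 lower (median -0.40). Angptl4, a secreted inhibitor of lipoprotein lipase, differed most, both in lactation at standard gravity and for hypergravity in lactation. It had 10.94 to 11.76 in lactating hypergravity glands, against 6.72 to 8.75 in lactating standard gravity glands. Pregnant glands had 10.17 to 11.66 in hypergravity, against 9.49 to 11.74 at standard gravity. The lactating standard gravity arrays lay below all others. Hypergravity in lactation was higher by 13.6-fold (log2 3.76 ± 0.45, adjusted p = 2.8e-05), lactation at standard gravity was lower than pregnancy (-3.35 ± 0.43, adjusted p = 1.8e-05), and the difference between stage effects was 3.67 ± 0.62 (adjusted p = 0.002). Lmf1, needed for lipase maturation, was lower in lactation at standard gravity (-1.83 ± 0.35, adjusted p = 0.00064). Hypergravity in lactation called 2 of the 23 higher and 2 lower (median 0.02), the 2 lower genes being the lipoprotein receptor Lrp8 (-2.37 ± 0.47) and Slc27a3 (-1.78 ± 0.37), of the fatty acid transport protein family.

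Of 19 triglyceride assembly genes, 18 were measured, and 5 were higher and 5 lower in lactation at standard gravity (median 0.05). Agpat5 (2.33 ± 0.31) and Agpat3 (1.64 ± 0.16), both acyltransferases of the second acylation step, were higher, and the lipin phosphatase gene Lpin3 was lower (-2.58 ± 0.32). In hypergravity 2 were higher and 3 lower (median 0.16). Hypergravity in lactation called 1 higher and 2 lower (median -0.15): the acyl-CoA synthetase Acsl3 was higher (1.33 ± 0.32, adjusted p = 0.012), while Acsl1 (-0.98 ± 0.17, adjusted p = 0.00079) and the monoacylglycerol acyltransferase Mogat1 (-1.57 ± 0.33, adjusted p = 0.0047) were lower. Gpat3 was not matched. Hypergravity in pregnancy called no gene of the 4 lists.

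**Figure D3:**
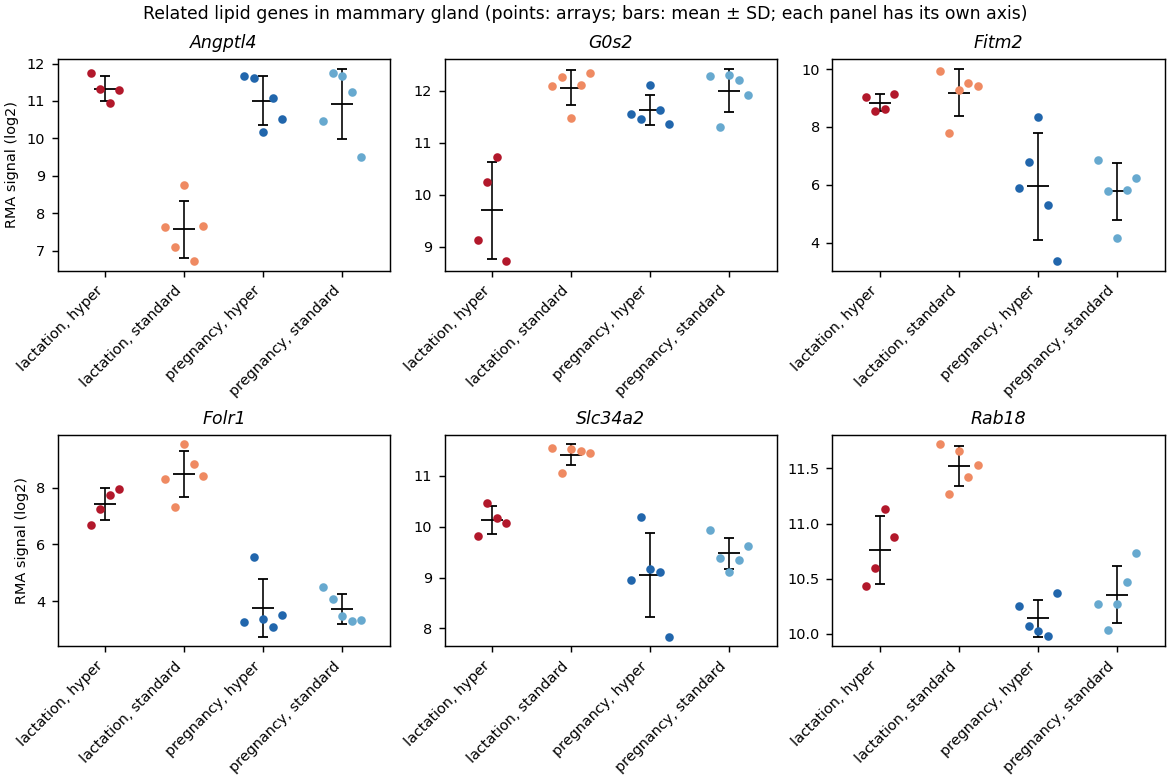
Log2 signal of 6 related genes in each mammary array of the main sets, with the mean and SD of the group. Angptl4 in lactating standard gravity glands (6.72 to 8.75) lies below every other group, and G0s2 in lactating hypergravity glands (8.72 to 10.72) lies below every other group.

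Across tissues, lactating mammary gland at standard gravity was set against adipose tissue and liver of the same rats. Against adipose tissue 7 members were higher and 1 lower, where 14.8% of all probe sets were higher and 15.1% lower. The log2 differences were 6.21 for Fabp3, 4.19 for Mfge8, 3.63 for Gpat4, 3.01 for Cidea, 1.29 for Plin2, 1.28 for Xdh and 0.50 ± 0.18 for Abhd5 (adjusted p = 0.031). The Abhd5 call was lost without mammary array M201S or M214S (adjusted p = 0.059 and 0.078) or adipose array A219S (0.089). Vldlr was lower in mammary gland (-1.39 ± 0.26, adjusted p = 3e-05), and Lpl (0.01 ± 0.38) and Cd36 (0.32 ± 0.28) were not called. The other Plin2 probe set, 1382680_at, dimmer in mammary gland and brighter in adipose tissue, gave the opposite sign, at -0.68 (adjusted p = 0.00029). The 2 tissues also differed in RNA extraction, by TRIzol for mammary gland and RNeasy Lipid for adipose tissue, so tissue and extraction cannot be told apart.

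Against liver, extracted as mammary gland was, all 10 members were higher in mammary gland, where 19.6% of all probe sets were higher and 15.8% lower. The differences ran from 1.03 for Plin2 and 1.10 for Abhd5 to 5.35 for Lpl, 5.68 for Cidea and 7.92 for Fabp3. Vldlr was higher by 3.39, but its other probe sets gave smaller differences: 2.01 for 1392924_at (adjusted p = 4.5e-09), 0.62 for 1369098_at, with overlapping arrays (adjusted p = 0.017), and 0.75 for 1387455_a_at, not called (adjusted p = 0.053). In pregnancy the comparison of mammary gland with adipose tissue had 5 members higher and 4 lower, where 20.9% of all probe sets were higher and 20.4% lower. Fabp3 (6.03), Mfge8 (4.31), Gpat4 (2.90), Plin2 (1.94) and Xdh (1.56) were higher in pregnant mammary gland. Cidea (-2.50), Vldlr (-1.64), Abhd5 (-1.55) and Cd36 (-1.49) were lower, and Lpl was not called (-0.25 ± 0.38). The other probe sets gave -0.87 for Plin2 (adjusted p = 4.9e-06) and -0.06 for Abhd5 (adjusted p = 0.92).

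**Figure D4:**
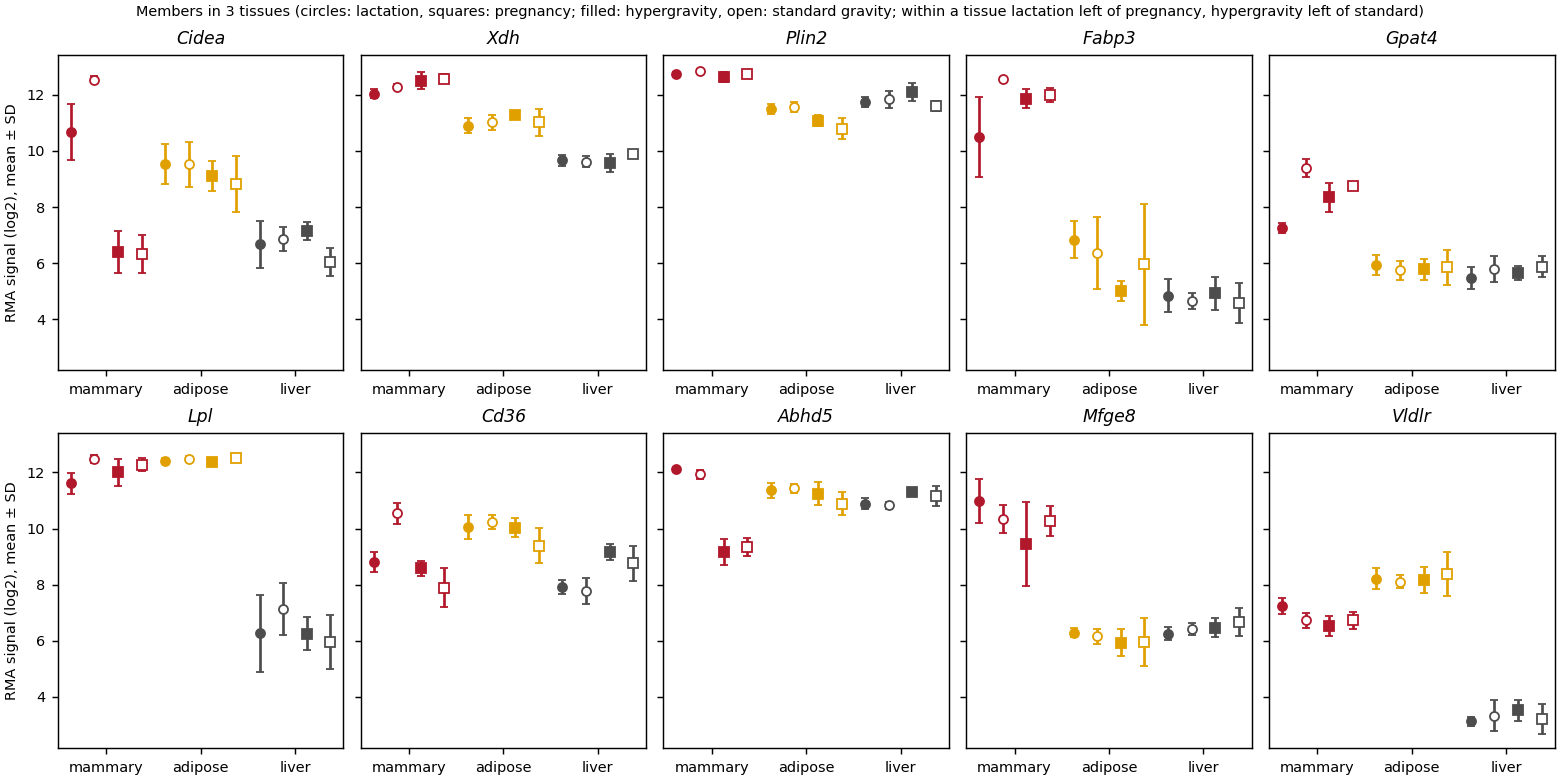
Mean log2 signal with SD of the 10 genes in the 12 groups of the main sets, with mammary gland, adipose tissue and liver from left to right; circles are lactation and squares pregnancy, filled symbols hypergravity and open symbols standard gravity. Fabp3, Gpat4 and Mfge8 are high in all 4 mammary groups, whereas the Cidea and Abhd5 means lie above the adipose means in the lactating mammary groups and below them in the pregnant mammary groups.

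Ordered by level, the 12 groups fell into a few patterns. For Cidea, lactating mammary gland was at the top, with 10.67 ± 1.00 in hypergravity (SD, n = 4) and 12.54 ± 0.13 at standard gravity (SD, n = 5), and these groups did not overlap. The adipose groups followed at 8.82 to 9.53 and overlapped one another. They also overlapped lactating hypergravity mammary gland, whose arrays ranged from 9.27 to 11.47. Liver and pregnant mammary gland lay at 6.06 to 7.14. For Abhd5 the lactating mammary groups averaged 12.13 and 11.93, the adipose and liver groups 10.83 to 11.43, and the pregnant mammary groups 9.16 and 9.34, so that mammary gland held both ends of the order. Cd36 reached 10.54 ± 0.38 (SD, n = 5) in lactating standard gravity mammary gland, beside 9.38 to 10.22 in the adipose groups.

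Fabp3, Gpat4 and Mfge8 formed a mammary pattern. Fabp3 averaged 10.49 to 12.56 in the 4 mammary groups, against 5.02 to 6.84 in adipose tissue and 4.57 to 4.92 in liver. Within adipose tissue, array A48S had 9.76 where the other 4 of its group had 4.59 to 5.61, and array A217H had 7.77. Both carried skeletal muscle markers, and the part of muscle in those values was not tested. Gpat4 averaged 7.25 to 9.38 in mammary groups, against 5.47 to 5.93 in the other tissues, and Mfge8 averaged 9.45 to 11.00, against 5.93 to 6.67. Xdh followed the order of the tissues, with 12.04 to 12.58 in mammary gland, 10.90 to 11.27 in adipose tissue and 9.58 to 9.88 in liver.

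Lpl averaged 11.61 to 12.52 over the mammary and adipose groups, against 5.95 to 7.13 in liver. The 4 adipose groups led the order for Vldlr, at 8.11 to 8.37, ahead of mammary gland at 6.52 to 7.23 and liver at 3.12 to 3.51. Plin2 averaged 12.63 to 12.86 in mammary gland, 10.80 to 11.57 in adipose tissue and 11.60 to 12.10 in liver, with neighbouring groups overlapping throughout. That order held for this probe set alone: on 1382680_at the means of the hypergravity and standard gravity groups were 10.42 to 10.90 in mammary gland, 11.40 to 11.59 in adipose tissue and 8.74 to 9.24 in liver.

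The stage effect was then set against that of adipose tissue at standard gravity, a comparison added after the data were seen. The lactation effect was greater in mammary gland for Cidea by 5.51 ± 0.59 (adjusted p = 1.1e-09), for Abhd5 by 2.05 ± 0.26 (adjusted p = 6.8e-08) and for Cd36 by 1.81 ± 0.39 (adjusted p = 5e-04). The Plin2 effect was smaller in mammary gland by -0.65 ± 0.20 (adjusted p = 0.014), but probe set 1382680_at gave 0.18 (adjusted p = 0.63), and without the arrays carrying markers of another tissue the value was -0.47 (adjusted p = 0.13). The dimmer Abhd5 probe set gave 1.31 and was not called (adjusted p = 0.092), and the dimmer Gpat4 probe set gave 1.93 (adjusted p = 4.2e-08), where the brighter one gave 0.73 ± 0.34 (adjusted p = 0.13). That made 3 members higher and 1 lower, where 9.23% of all probe sets were higher and 11.7% lower.

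In liver, 1 member was called. Cd36 had 8.17, 8.09, 8.05, 7.74 and 7.57 in lactating hypergravity livers, against 9.67, 8.98, 9.07, 9.11 and 9 in pregnant hypergravity livers. The groups did not overlap, and lactation was lower by 2.37-fold (log2 -1.24 ± 0.26, adjusted p = 0.0086). At standard gravity the livers had 7.27, 8.42, 7.92, 7.89 and 7.35 in lactation, against 9.33, 9.26, 9.05, 8.03 and 8.14 in pregnancy, which overlap, with a difference of -0.99 ± 0.26 (adjusted p = 0.089). That value passed the test without array L52S, L57S or L202S (adjusted p = 0.048, 0.035 and 0.037). In mammary gland the same lactation differences of Cd36 were 0.22 in hypergravity and 2.64 at standard gravity, and the difference between the tissues was not tested.

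The stage comparison in liver under hypergravity called 0 members higher and 1 lower, where 1.22% of all probe sets were higher and 2.01% lower. At standard gravity 0 were called by limma, where 0.341% were higher and 0.28% lower and 3382 probe sets had an unadjusted p under 0.05. Hypergravity in pregnancy called 0, where 0.058% were higher and 0.0451% lower, and 2507 had an unadjusted p under 0.05. Hypergravity in lactation called 0, where 0.0934% were higher and 0.312% lower, and 4238 had an unadjusted p under 0.05. The difference between stage effects called 0, where 0.0515% were higher and 0.0741% lower, and 3500 had an unadjusted p under 0.05. Cidea in pregnant livers was 7.14 ± 0.32 in hypergravity and 6.06 ± 0.50 at standard gravity (SD, n = 5 each), without overlap, but the difference of 1.08 ± 0.32 did not pass limma's test (adjusted p = 0.29).

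Adipose tissue gave no called member by limma in any of its 5 comparisons. For lactation at standard gravity 0.00322% of all probe sets were higher and 0% lower, and in each of the other 4 comparisons 0% were higher and 0% lower. The numbers at an unadjusted p under 0.05 ran from 709 for hypergravity in lactation to 1852 for lactation at standard gravity. They were 1141 for lactation in hypergravity, 1283 for hypergravity in pregnancy and 1055 for the difference between stage effects. Chance alone gives about 1 in 20 of the 31042 probe sets. Plin2 arrays separated by stage at standard gravity: lactating standard gravity tissue had 11.4 to 11.84, against 10.19 to 11.19 in pregnant standard gravity tissue, without overlap. Its difference of 0.78 ± 0.16 did not pass the test (adjusted p = 0.46). The other Plin2 probe set, 1382680_at, which was the brighter one in adipose tissue, gave 0.13 ± 0.11 (adjusted p = 0.87), with overlapping arrays. Cd36 differed by 0.83 ± 0.26 in the same comparison (adjusted p = 0.70).

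In the microgravity set, Gpat4 was the one member called. It had 9.04, 9.32, 9.46 and 9.35 in microgravity glands, against 8.75, 8.07, 8.64 and 8.72 in flight controls and 8.37, 8.27, 8.44 and 8.16 in vivarium controls. Every microgravity array lay above every control array. Against the vivarium control the difference was 0.99 ± 0.16 (1.98-fold, adjusted p = 0.016), and against the flight control it was 0.75 ± 0.16 (adjusted p = 0.07). The dimmer Gpat4 probe set gave 0.94 (adjusted p = 0.022) and 0.68 (adjusted p = 0.097). The vivarium call was lost on leaving out any of microgravity arrays B, C and D or vivarium arrays B and D (adjusted p = 0.055, 0.065, 0.054, 0.053 and 0.067), with differences of 0.93 to 0.98. It was also lost without vivarium arrays A and C (1.08, adjusted p = 0.14), which carried skeletal muscle markers. The muscle marker mean was 5.09 to 5.2 in microgravity glands, against 8.47 and 8.37 in those 2 vivarium arrays.

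Cidea had 8.19, 7.19, 8.47 and 8.52 in microgravity glands, against 7.96, 6.73, 6.55 and 6.36 in flight controls and 7.37, 6.35, 6.91 and 7 in vivarium controls. Array B was the lowest in microgravity and overlapped both controls. The difference was 1.19 ± 0.36 from each control and was not called (adjusted p = 0.18 against flight, 0.23 against vivarium). Fabp3 lay at 12.88 to 12.97 in microgravity glands, against 12.56 to 12.82 in flight controls and 12.85 to 12.9 in vivarium controls. Cd36 differed from the flight control by 0.56 ± 0.19 (adjusted p = 0.23). Vldlr had 6.67 to 7.15 in microgravity glands, 5.23 to 6.93 in flight controls and 6.95 to 7.22 in vivarium controls. For Vldlr the flight control lay below the vivarium control, by -0.95 ± 0.27 (adjusted p = 0.40).

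The second Plin2 probe set, 1382680_at, separated all 3 groups, with 11.61 to 11.8 in microgravity glands, 11.07 to 11.24 in flight controls and 10.85 to 10.99 in vivarium controls. Its differences were called against both the flight control (0.53 ± 0.09, adjusted p = 0.034) and the vivarium control (0.74, adjusted p = 0.0059). The brighter probe set, at 12.66 to 12.95 in all 12 arrays, gave 0.09 ± 0.09 and 0.05 ± 0.09, neither called.

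Microgravity against flight control called 0 of the 10 members by limma, where 0.271% of all probe sets were higher and 0.0966% lower and 4100 had an unadjusted p under 0.05. Against the vivarium control 1 was higher and 0 lower, where 0.319% were higher and 0.174% lower. Flight control against vivarium control called 0, where 0% were higher and 0.00322% lower and 2851 had an unadjusted p under 0.05. The first 2 comparisons share the microgravity arrays, and no gene of the 4 related lists was called in any of the 3.

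**Figure D5:**
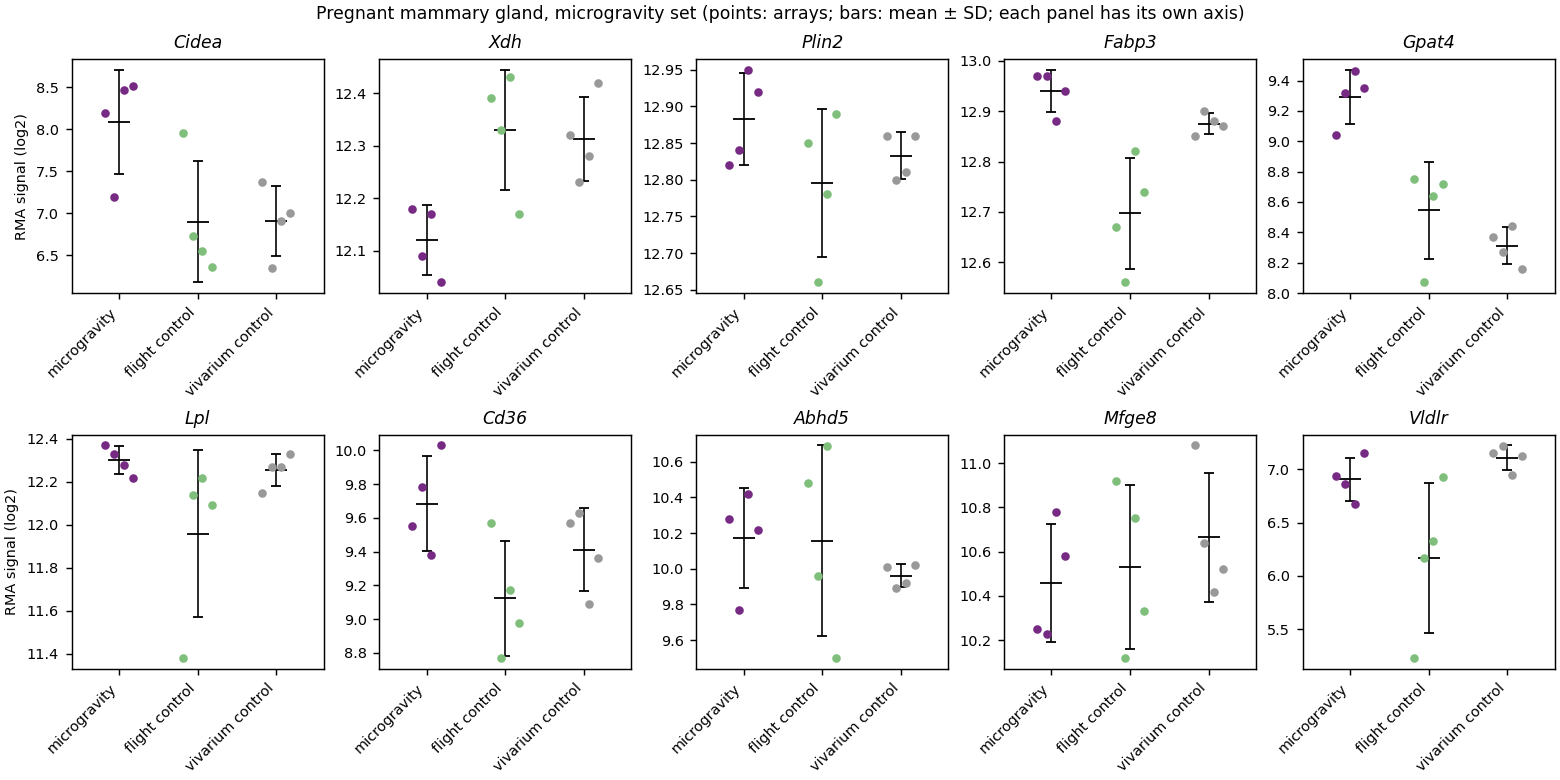
Log2 signal of the 10 genes in the 12 arrays of the microgravity set, with the mean and SD of each group, in the order microgravity, flight control and vivarium control; each panel has its own vertical axis. The 4 microgravity arrays of Gpat4 (9.04 to 9.46) lie above all control arrays (8.07 to 8.75).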

How the data were processed

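Rat tissue RNA was isolated with TRIzol (mammary gland and liver) or RNeasy Lipid (adipose tissue), and 25 ng per array went through NuGEN's Ovation Biotin labelling, per the labels' protocols. The deposited values are log2 signals per Affymetrix probe set, made by RMA per the submitters' processing notes. The RMA version and which arrays were normalized together are not given in the sources used here. RMA values carry no detection calls, so a fold against a dim group is approximate and a probe set near the top of the scale can understate a difference. Of 31042 probe sets, 20826 had 1 symbol, 436 had several and 9780 had none; 20758 had a gene identifier found in the RefSeq table of GRCr8. The number of arrays limits the precision.

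Group means models were fitted to all 31042 probe sets by lmFit and eBayes of limma 3.58.1 (R 4.3.3; two-sided tests): 19 mammary, 20 liver, 19 adipose and 12 microgravity-set arrays, and 58 arrays jointly for tissue comparisons. P-values were adjusted by Benjamini-Hochberg over all probe sets, and a call is an adjusted p under 0.05. Without adjustment, chance alone gives about 1 in 20 probe sets a p under 0.05. This gave 22 comparisons, 1 of them (stage effect in mammary gland against that in adipose tissue) added after the data were seen. The code was tested on simulated data with known changes. Figures were drawn with matplotlib 3.10.9 in Python 3.11.15.

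All 10 members were tested in every comparison. Every called member was described, but only some of those not called. From each related list, up to 3 called genes with the largest absolute differences in the comparisons described were named. For each member, up to 3 genes outside the set with the highest Pearson correlation over the 19 mammary arrays were named. The members, lists and markers were chosen with earlier results of these data known. Same-rat arrays of different tissues come from the same animal; their deviations from group means correlated at 0.03 to 0.33 (mammary and adipose, lactation), 0.1 to 0.31 (mammary and liver, lactation) and 0 to 0.16 (mammary and adipose, pregnancy). The rat as a block was therefore an alternative, besides array weights, a trended robust fit, renewed quantile normalization, leaving out dim probe sets, fitting only the groups compared, other probe sets, and leaving out or restoring arrays.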

Additional observations from a re-analysis of the deposited data

Results flagged for a closer look

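Within groups of 4 or 5 arrays, 10 of 150 sets of values had 1 array far from the rest by Dixon's criterion, and chance gives about 1 in 20. In mammary gland, array M42S was low within pregnant standard gravity for Plin2 (12.61, next 12.74) and Xdh (12.28, next 12.62). In adipose tissue, array A56H was low within pregnant hypergravity for Abhd5 (10.53, next 11.31) and Cd36 (9.44, next 10.09). Array A219S was low for Abhd5 within lactating standard gravity adipose tissue (11.18, next 11.46), and array A217H was low for Cd36 within lactating hypergravity adipose tissue (9.42, next 10.24). Array A48S was high for Fabp3 within pregnant standard gravity adipose tissue (9.76, next 5.61); its skeletal muscle marker mean was 12.45. In liver, array L50H was high for Cd36 within pregnant hypergravity (9.67, next 9.11). In the flight control, array B was low for Gpat4 (8.07, next 8.64) and array A was low for Lpl (11.38, next 12.09).

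The lactation effect in mammary gland differed by gravity for Gpat4, by -1.73 on the log2 scale (hypergravity minus standard gravity), and for Cd36, by -2.42. The lactation effect at standard gravity differed between mammary gland and adipose tissue for Cidea (5.51), Abhd5 (2.05), Cd36 (1.81) and Plin2 (-0.65), as mammary minus adipose. Each passed limma's test of the difference itself.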

How the results depend on the processing

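For the 60 pairs of a member and a comparison that were called in some setting, 1140 values were recomputed: 1079 kept their direction and side of the threshold, 31 lost the call, 26 gained it and 4 reversed. Where no construction shows it, the cause was not tested. For the 160 pairs called in none, 188 of 3007 recomputed values changed sign, 27 of them on another probe set. The reversals came from other probe sets: Plin2 1382680_at gave -0.68 and -0.87 for mammary gland against adipose tissue in lactation and pregnancy and 0.18 for the difference of stage effects, and Vldlr 1392924_at gave -0.23 for lactation in hypergravity. Counts of called members changed by over 1.5 times in a few settings. The difference between mammary stage effects called 4 members with dim probe sets left out, against 2 (Fabp3 and Cidea added). Liver at standard gravity called 1 with array weights, against 0 (Cd36). Microgravity against flight control called 1 with dim probe sets left out and 1 with a trended robust fit, against 0 (Gpat4). Microgravity against vivarium control called 2 with array weights (Cidea added) and 0 without vivarium arrays A and C, which carried muscle markers, against 1.

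Leaving out 1 array at a time gave 3 to 4 called members for mammary lactation at standard gravity, 4 to 8 for lactation in hypergravity, 4 to 5 for hypergravity in lactation and 2 to 4 for the difference between stage effects (4 without M212H). It gave 0 to 1 for liver lactation at standard gravity, 0 to 1 against the vivarium control, 7 to 8 for mammary gland against adipose tissue in lactation and 4 to 5 for the tissue difference of stage effects. With arrays M210H and A210H restored under their labels, Gpat4 in lactation at standard gravity (adjusted p = 0.058) and Lpl for hypergravity in lactation (-0.68, adjusted p = 0.087) lost their calls. With only the compared groups fitted, Xdh and Fabp3 in lactation under hypergravity lost theirs (adjusted p = 0.099 and 0.12) and Fabp3 at standard gravity gained one (0.0037). Over all probe sets, hypergravity in lactation called 5376 with array weights, against 2928, and lactation in hypergravity called 5923 with only the compared groups, against 9080. The difference between stage effects called 1996 with array weights and 788 with those arrays restored, against 1250. Microgravity against vivarium control called 749 with array weights, 414 with only the compared groups, 84 with the block and 11 without arrays carrying other tissue, against 153, and against flight control 204, 23, 0 and 33 were called with dim probe sets left out, only the compared groups, the block and without those arrays, against 114.

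With the rat as replicate block, tissue comparisons called 8, 10 and 9 members, the same numbers as without it. In the microgravity set the letters share only a number: same-letter deviations correlated at -0.15 to 0.08, and 1 of 4 letters, 0 of 4 and 1 of 4 correlated best with their own. With the letter as replicate block the members called were 0 against flight, 1 against vivarium and 0 between controls, and the block changed no member call.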
